A study of Arabidopsis thaliana with 6 samples.

Results

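*AGL66* and *AGL18* encode MADS domain transcription factors, and they were followed here in inflorescences of *tink/ibr5-6* mutant and wild-type Arabidopsis. Both were chosen by name, with earlier results of these arrays known. *AGL66* (AT1G77980, chromosome 1) is represented by probe set 262179_at and *AGL18* (AT3G57390, chromosome 3) by probe set 251623_at, each of which the platform annotation assigns to that gene alone. They are 2 of 13356 genes, and 2 of 40 MADS box genes, that are named alone for a probe set. In the *tink/ibr5-6* inflorescences *AGL66* was lower (log2 fold change -1.70), whereas *AGL18* had a log2 fold change of 0.027 and did not pass the test.

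MADS domain proteins bind DNA as dimers and control flowering time, the identity of floral organs and the development of gametophytes and seeds. *AGL66* belongs to the MIKC* class, whose proteins act mainly in pollen. AGL66 and AGL104 pair there with AGL30, AGL65 or AGL94, and these heterodimers are needed for pollen maturation and for the growth of the pollen tube. *AGL18* belongs to the MIKCc class, which also holds the floral organ identity genes, and is a close relative of *AGL15*. AGL15 and AGL18 act redundantly as repressors of flowering, and *AGL18* transcript is also found in pollen, where *AGL18* and *AGL29* have been described as targets downstream of the MIKC* complexes.

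The *tink/ibr5-6* plants carry a mutation of the active-site cysteine of the dual-specificity phosphatase IBR5, induced by EMS in plants with the *klu-2* mutation and separated from it by 3 backcrosses to Landsberg *erecta* (L*er*), the wild type used for comparison. RNA of inflorescences bearing young buds was taken from 3 *tink/ibr5-6* and 3 L*er* plants, and each plant gave 1 Affymetrix ATH1 array, a chip of short oligonucleotides grouped into probe sets. The study also calls this material closed flowers, no plant age or finer bud stage is given in the sources used here, and whether both genotypes grew side by side is not stated there either, so p-values describe only the spread among these 6 plants. The deposited values were made by the authors with gcrma, which removes background according to the base composition of each probe and yields 1 log2 value per probe set for each array.

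Array medians lay between 6.18 and 6.20, and the lowest value that gcrma assigned was 2.10. Across probe sets, arrays of the same genotype correlated at r = 0.996 to 0.998 and arrays of different genotypes at r = 0.972 to 0.985, and probe sets are not independent replicates. A probe set was called when limma gave an adjusted p under 0.05 (Benjamini-Hochberg over 22746 probe sets) and an absolute log2 fold change above 1, the thresholds of the study's methods. A log2 value under 3 is described below as low signal, a level set with the values known. Because probe sets differ in how well they bind their transcript, a value of 1 gene is not read as a higher or lower level than that of another.

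*AGL66* was lower on every *tink/ibr5-6* array than on any L*er* array. Its log2 values were 5.05, 4.70 and 4.47 on *tink/ibr5-6* replicates 1, 2 and 3, and 6.33, 6.80 and 6.18 on L*er* replicates 1, 2 and 3. The genotypes did not overlap, and 1.13 log2 units separated the highest *tink/ibr5-6* array from the lowest L*er* array. The mean was 4.74 ± 0.29 (SD) in *tink/ibr5-6* (n = 3) and 6.44 ± 0.32 (SD, n = 3) in L*er*, so that the spread among plants was similar in the 2 genotypes. The log2 fold change was -1.70 (standard error, SE, 0.24; limma adjusted p = 0.0184), a level 3.24-fold higher in L*er*. Its 95% confidence interval from limma ran from -2.34 to -1.05 on the log2 scale, which is 0.198 to 0.482 of the L*er* level. All 6 values lay well above the lowest gcrma value, so that neither mean is a bound. An exact permutation test of 3 arrays against 3 (two-sided) gave p = 0.1, the smallest that such a design can reach.

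**Figure D1:**
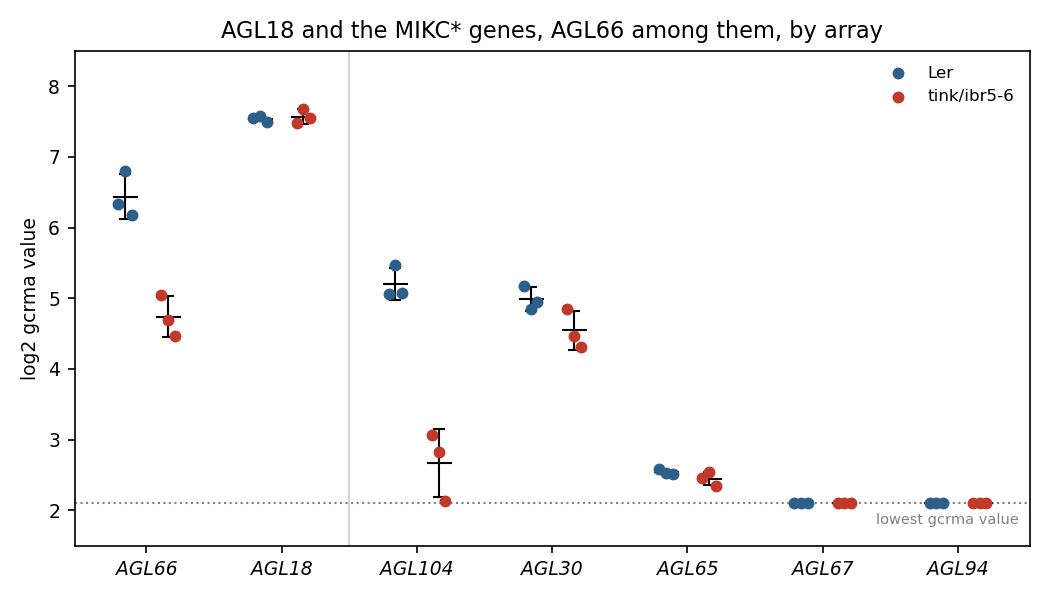
Log2 gcrma value (y axis) of *AGL18* and of *AGL66* and the other MIKC* genes on each array, with L*er* in blue and *tink/ibr5-6* in red, where points are plants, the long horizontal bars are means and the error bars are SD (n = 3), and the dotted line is the lowest gcrma value, 2.10. For *AGL66* the red points lie between 4.47 and 5.05 and the blue points between 6.18 and 6.80, whereas for *AGL18* all 6 points lie between 7.48 and 7.68.

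The call of *AGL66* depended on which arrays were included, while its direction did not. Without 1 array its log2 fold change lay between -1.85 and -1.52. It was called without *tink/ibr5-6* replicate 1 (-1.85, limma adjusted p = 0.0443) and without L*er* replicate 2 (-1.52, limma adjusted p = 0.0472). It was not called without L*er* replicate 1 (-1.75, limma adjusted p = 0.0567) or L*er* replicate 3 (-1.82, limma adjusted p = 0.0502). It was also not called without *tink/ibr5-6* replicate 2 (log2 fold change -1.68, limma adjusted p = 0.0735) or replicate 3 (-1.56, limma adjusted p = 0.0565). In each of these 4 fits the size of the change stayed above the limit and the adjusted p exceeded 0.05.

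**Figure D2:**
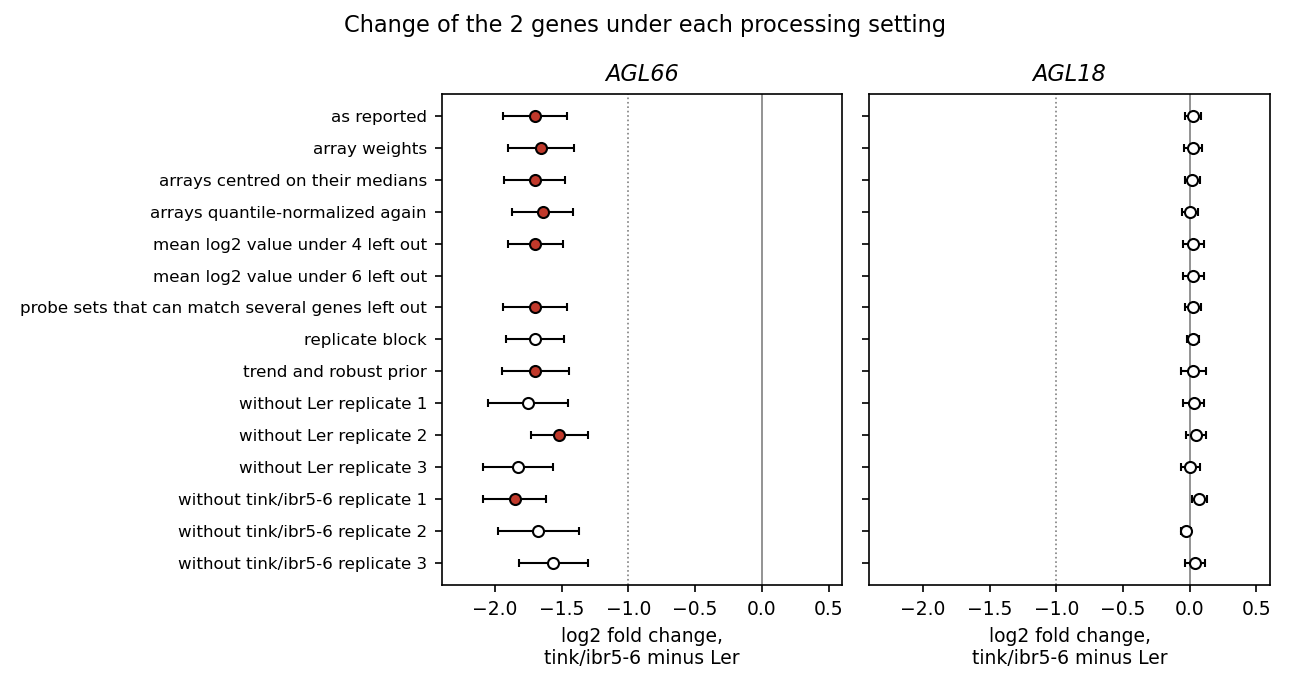
Log2 fold change, *tink/ibr5-6* minus L*er* (x axis), of *AGL66* (left) and *AGL18* (right) as reported and under each alternative setting (y axis), where bars are standard errors from limma, filled points were called and open points were not, and the dotted line marks the limit of -1. *AGL66* stays between -1.85 and -1.52 in all fits that hold it, and *AGL18* between -0.029 and 0.071.

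Over the whole array, 4.25% of all probe sets were called, 2.71% as lower and 1.53% as higher in *tink/ibr5-6*, and in 14.4% the *tink/ibr5-6* arrays lay entirely below those of L*er*. With 1 of its 2 genes called lower, the pair is too small for a share to be read against this background. By size of log2 fold change *AGL66* ranked 371 among the 617 probe sets called lower, so that most of them fell by more. Its change was larger than that of most probe sets of a like signal. Of 730 probe sets with a mean within 0.25 log2 units of that of *AGL66*, 92.9% had a smaller absolute log2 fold change, 49 were called lower and 29 higher.

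*AGL18* differed between genotypes by less than the spread among plants. Its log2 values were 7.48, 7.68 and 7.55 on *tink/ibr5-6* replicates 1, 2 and 3, and 7.55, 7.58 and 7.50 on L*er* replicates 1, 2 and 3. The genotypes overlapped, with both the highest and the lowest of the 6 values in *tink/ibr5-6*, and the 6 arrays spanned only 0.20 log2 units. The mean was 7.57 ± 0.10 (SD) in *tink/ibr5-6* (n = 3) against 7.54 ± 0.042 (SD, n = 3) in L*er*, which differ by 0.027 on the log2 scale (SE 0.061, limma adjusted p = 0.957). The 95% confidence interval from limma ran from -0.14 to 0.19 on the log2 scale, or 0.910 to 1.14 of the L*er* level, for the inflorescence as a whole. Whether *AGL18* changed in pollen alone was not tested. An exact permutation test (two-sided) gave p = 0.9. Of 1495 probe sets with a mean within 0.25 log2 units of that of *AGL18*, 5.42% had a smaller absolute log2 fold change, and the median over all 1495 was 0.234. Leaving out *tink/ibr5-6* replicate 2, the array with its highest value, turned the sign of the *AGL18* log2 fold change to -0.029 (limma adjusted p = 0.764).

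The changes of *AGL66* and *AGL18* were also set against each other within arrays. Since *AGL18* spanned only 0.20 log2 units, this measure mostly restates the values of *AGL66*, and only its change between genotypes is read. The log2 value of *AGL66* minus that of *AGL18* was -2.43, -2.99 and -3.08 on *tink/ibr5-6* replicates 1, 2 and 3, and -1.22, -0.78 and -1.32 on L*er* replicates 1, 2 and 3. The genotypes did not overlap in this measure, in which any scaling common to an array cancels. Its mean was -2.83 ± 0.35 (SD) in *tink/ibr5-6* (n = 3) and -1.11 ± 0.28 (SD, n = 3) in L*er*, a difference of -1.72. An exact permutation test (two-sided) gave p = 0.1, the smallest that 20 regroupings of 6 arrays allow. Under the 13 alternatives that keep both genes the difference lay between -1.92 and -1.56.

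Among the other MIKC* genes, *AGL104*, the close paralogue of *AGL66* with which it acts in pollen, was also lower in *tink/ibr5-6*. Its log2 values were 3.06, 2.83 and 2.14 on *tink/ibr5-6* replicates 1, 2 and 3, and 5.06, 5.47 and 5.08 on L*er* replicates 1, 2 and 3. The genotypes did not overlap, and 2 of the 3 *tink/ibr5-6* arrays were at low signal, so that the fitted value is not exact. The log2 fold change was -2.53 (SE 0.29, limma adjusted p = 0.0124). It ranged from -2.72 to -2.26 without 1 array and was not called without *tink/ibr5-6* replicate 2 (-2.60, limma adjusted p = 0.0505).

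*AGL30*, which encodes a partner of AGL66 and AGL104 in the heterodimers, was not called. Its log2 values were 4.85, 4.47 and 4.31 on *tink/ibr5-6* replicates 1, 2 and 3, and 5.17, 4.85 and 4.95 on L*er* replicates 1, 2 and 3. The highest *tink/ibr5-6* array equalled the lowest L*er* array, and the other 2 lay below all L*er* arrays. The log2 fold change was -0.45 (SE 0.18, limma adjusted p = 0.187) and lay between -0.60 and -0.33 under the alternatives, called in none of 13. *AGL65*, which encodes another partner, was at low signal on every array, between 2.35 and 2.54 in *tink/ibr5-6* and between 2.52 and 2.58 in L*er* (log2 fold change -0.09, limma adjusted p = 0.353). *AGL94* and *AGL67* lay at the lowest gcrma value, 2.10, on all 6 arrays, so that no level or change can be given for them.

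All 6 listed MIKC* genes were measured, meaning that a probe set stands for the gene alone, and 2 were called lower, none higher and 4 not at all, beside 2.71% of all probe sets called lower and 1.53% called higher. Both genes called, *AGL66* and *AGL104*, encode the same side of the heterodimers. The median log2 fold change of the 6 genes was -0.27 and that of all 22746 probe sets was 0. Averaged over the 6, values lay between 2.91 and 3.27 in *tink/ibr5-6* and between 3.82 and 3.97 in L*er*. Since 3 of the 6 never reached a log2 value of 3, this gap comes mainly from *AGL66* (-1.70) and *AGL104* (-2.53). It is not a shift of the whole class.

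Of the 40 measured MADS box genes, *AGL66* and *AGL104* were the only ones called, both lower, and 38 were not called by limma, where 2.71% of all probe sets were called lower. At an unadjusted p under 0.05, 3 of the 40 were lower and 1 was higher, beside 11.9% and 17.9% of all probe sets. Most of the family gave little signal in these samples, since 32 of the 40 never reached a log2 value of 3 on any array. The MADS genes measured leave out many of the best known floral ones. Of 39 listed MIKCc genes 9 were measured, and *AP1*, *AP3*, *PI*, *AG*, the *SEP* genes and *AGL15* are among those not analysed here.

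**Figure D3:**
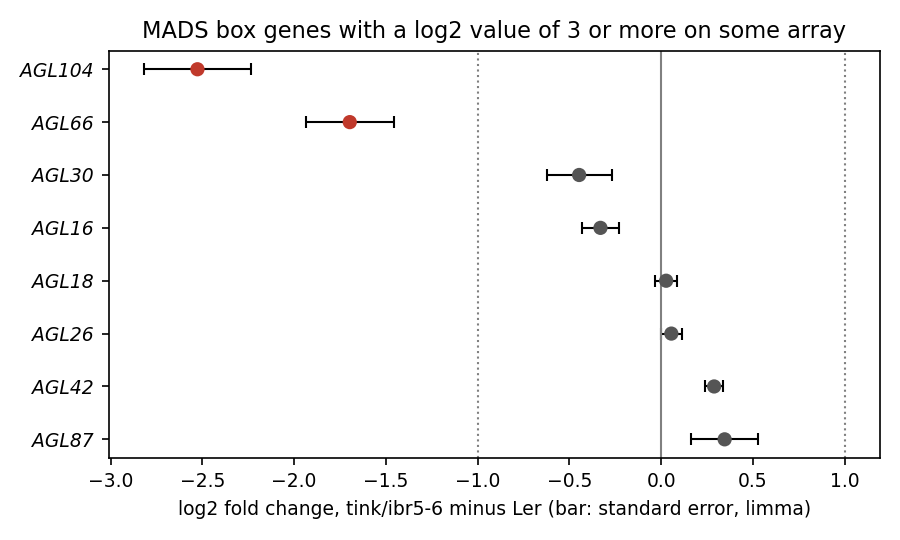
Log2 fold change, *tink/ibr5-6* minus L*er* (x axis), of the 8 MADS box genes with a log2 value of 3 or more on some array, each a row, where points are estimates and bars standard errors from limma, red points were called, and dotted lines mark the limits of -1 and 1. *AGL104* at -2.53 and *AGL66* at -1.70 lie past the lower limit, and the other 6 lie between -0.45 and 0.35.

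No relative of *AGL18* in the MIKCc class was called. *AGL42*, also known as *FYF*, a repressor of floral organ senescence and abscission, had log2 values of 8.56, 8.56 and 8.57 on *tink/ibr5-6* replicates 1, 2 and 3, and 8.21, 8.38 and 8.24 on L*er* replicates 1, 2 and 3. Its arrays did not overlap and its values were higher in *tink/ibr5-6*, as held for 4848 of all 22746 probe sets. The log2 fold change of *AGL42*, 0.29 (SE 0.050, limma adjusted p = 0.0293), was under the limit for a call. *AGL16*, a flowering repressor that lies on chromosome 3 as *AGL18* does, had 6.38, 6.44 and 6.23 on *tink/ibr5-6* replicates 1, 2 and 3, and 6.72, 6.52 and 6.81 on L*er* replicates 1, 2 and 3. Its arrays did not overlap either, with lower values in *tink/ibr5-6*, and its log2 fold change of -0.33 (SE 0.10, limma adjusted p = 0.113) did not pass. With *AGL18* these were the 3 MIKCc genes with a value above 3 on some array, and the other 6 measured MIKCc genes never reached it.

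Outside both classes, *AGL26* and *AGL87* were the only 2 of 25 measured genes that reached a log2 value of 3 on some array. *AGL26* lay between 9.04 and 9.21 in *tink/ibr5-6* and between 9.01 and 9.10 in L*er* (log2 fold change 0.06, limma adjusted p = 0.618). *AGL87* had 6.73, 7.03 and 7.29 on *tink/ibr5-6* replicates 1, 2 and 3, and 6.47, 6.82 and 6.72 on L*er* replicates 1, 2 and 3, a log2 fold change of 0.35 (SE 0.18, limma adjusted p = 0.31). Both overlapped between genotypes. *AGL29*, named above together with *AGL18* and singled out here with its values known, was at 2.10 on 5 arrays and at 2.12 on L*er* replicate 3, so that it cannot be set beside *AGL18*.

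The genes listed for the pathway of AGL15 and AGL18 could hardly be followed. Of 17 listed genes of flowering, embryogenesis and floral abscission, *AGL15* itself among them, 2 were measured, the flowering activator *AGL24* and the embryogenesis gene *BBM*. *AGL24* lay between 2.60 and 2.74 in *tink/ibr5-6* and at 2.60 on all L*er* arrays, and *BBM* at 2.10 on all 6 arrays. Both were at low signal throughout and neither was called, while *FT*, *SOC1*, *SVP*, *FLC* and the *LEC* genes were not analysed here.

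MIKC* proteins act in mature pollen and the pollen tube, and 8 genes listed for that stage were called lower in *tink/ibr5-6* as *AGL66* was. Of 63 listed genes 16 were measured, with 8 lower, none higher, 8 not called and a median log2 fold change of -1.96, while 2.71% of all probe sets were called lower. In 13 of the 16 the *tink/ibr5-6* arrays lay entirely below the L*er* arrays, which held for 14.4% of all probe sets. The list was written with results of these arrays known and is not independent evidence of their direction. The study also found a subset of pollen genes mis-regulated by quantitative PCR. It saw no gross defect in the form of mutant anthers or pollen, and no significant change in transmission of the mutation through pollen. *SWEET5*, a sugar transporter gene of pollen, had log2 values of 5.29, 6.04 and 4.55 on *tink/ibr5-6* replicates 1, 2 and 3, and 9.97, 10.00 and 10.05 on L*er* replicates 1, 2 and 3. Its log2 fold change was -4.71 (SE 0.41, limma adjusted p = 0.00729), and the genotypes were far apart. *PLIM2A*, which encodes an actin-bundling protein, had 3.75, 2.23 and 2.33 on *tink/ibr5-6* replicates 1, 2 and 3, and 7.63, 8.94 and 7.98 on L*er* replicates 1, 2 and 3. With 2 *tink/ibr5-6* arrays at low signal its fitted log2 fold change of -5.41 (limma adjusted p = 0.0115) is not exact.

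*BUPS1* and *ANX2* encode receptor kinases that keep the growing pollen tube intact. *BUPS1* lay between 3.19 and 3.86 in *tink/ibr5-6* and between 6.36 and 7.07 in L*er*, with a log2 fold change of -3.18 (limma adjusted p = 0.00726). *ANX2* was at low signal on all *tink/ibr5-6* arrays and at least 7.53-fold lower there, counted from a log2 value of 3 (fitted log2 fold change -3.42, limma adjusted p = 0.0141). It was not called without *tink/ibr5-6* replicate 2 (limma adjusted p = 0.0602) or replicate 3 (limma adjusted p = 0.051), whereas *SWEET5*, *PLIM2A* and *BUPS1* were called in all 6 such fits. The 8 others did not pass the test. Among them *TUB9*, a tubulin gene, had a log2 fold change of -0.05 (limma adjusted p = 0.723) and the actin gene *ACT11* one of -0.48 (limma adjusted p = 0.178). The rest are named with their values known. *EXPB5*, *LRX8* and *ANX1*, at low signal on all *tink/ibr5-6* arrays, had fitted values of -2.68, -2.12 and -1.45 (limma adjusted p = 0.0748, 0.152 and 0.105). *TUA1* had -0.54 (limma adjusted p = 0.255) and *LRX11* -0.46 (limma adjusted p = 0.475), and *BUPS2* was at low signal on all arrays. Averaged over all 16 measured pollen genes, log2 values lay between 4.004 and 4.33 in *tink/ibr5-6* and between 5.85 and 6.64 in L*er*. In inflorescences, fewer cells of a type and less RNA per cell cannot be told apart. The study also describes more flowers in the mutant inflorescence and a slightly shortened plastochron, the interval between successive organs. Whether the mix of bud ages in the sampled tissue differed between genotypes was not tested. The part of pollen content in the lower *AGL66* and *AGL104* values was not tested. Nor was the part of bud age in these values or in those of the pollen genes.

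**Figure D4:**
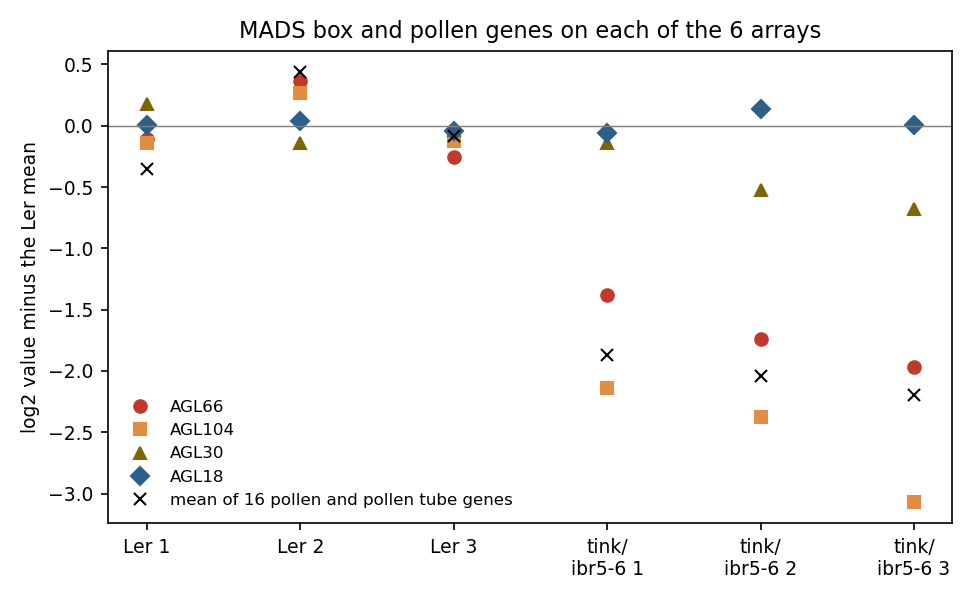
Log2 value minus the mean of the L*er* arrays (y axis) on each array (x axis) for *AGL66*, *AGL104*, *AGL30*, *AGL18* and the mean of the 16 measured pollen and pollen tube genes, where replicate numbers carry no order. On the *tink/ibr5-6* arrays *AGL66*, *AGL104* and the pollen mean all lie more than 1 log2 unit below the L*er* mean, while *AGL18* stays near 0.

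Within each genotype, the MIKC* genes with signal shared part of the order of the arrays. *AGL66*, *AGL104* and *AGL30* were each highest on *tink/ibr5-6* replicate 1 and lowest on replicate 3 among the mutant plants, and *AGL66* and *AGL104* were highest on L*er* replicate 2 among the wild-type plants, whereas *AGL30* was highest on L*er* replicate 1. Of the 15 pollen genes with a value above 3 on some array, 13 (86.7%) were highest on L*er* replicate 2, as were 59.2% of the 617 probe sets called lower and 32.4% of all probe sets with such a value. Among those with a single lowest mutant array, *tink/ibr5-6* replicate 3 was lowest for 8 of 11 pollen genes (72.7%), for 64.1% of the probe sets called lower and for 33.6% of all. Not all positions matched, since 12 of the 15 pollen genes (80.0%) and *AGL104* were lowest on L*er* replicate 1, whereas *AGL66* was lowest on L*er* replicate 3 and *AGL30* on L*er* replicate 2. Several of the 15 pollen genes reached a value of 3 only on L*er* arrays. *LRX11* did so only on L*er* replicate 2 (3.24), so that its highest array follows from this limit. For such genes, *ANX2* and *LRX10* among them, the order of the mutant arrays was read at low signal. *AGL104* was also at low signal on *tink/ibr5-6* replicates 2 and 3. The counts by array carry no test. *AGL18* was highest on *tink/ibr5-6* replicate 2 and also on L*er* replicate 2, within its narrow range.

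No measured marker of the sperm cells, the tapetum or the pistil was called by limma. In the generative and sperm cells, the only measured gene of 11 listed was the sperm histone gene *HTR10*, with log2 values of 4.92, 5.14 and 2.82 on *tink/ibr5-6* replicates 1, 2 and 3, and 7.14, 7.27 and 7.31 on L*er* replicates 1, 2 and 3 (log2 fold change -2.95, limma adjusted p = 0.0622). Its genotypes did not overlap, but the spread in *tink/ibr5-6* was wide and it was not called. Of 27 genes listed for the early anther and the tapetum, the layer that feeds young microspores, 5 were measured, none was called by limma and 2 were higher at an unadjusted p under 0.05, as 17.9% of all probe sets were. Their average was 9.89 to 10.0 on the *tink/ibr5-6* arrays and 9.72 to 9.77 on the L*er* arrays, with the tapetal gene *A9* at a log2 fold change of 0.35 (limma adjusted p = 0.0597) and the pollen coat lipase gene *EXL5* at -0.34 (limma adjusted p = 0.234). *AMS*, which encodes a tapetal transcription factor and is named here with its values known, had 0.89 (limma adjusted p = 0.0253), under the limit, and its arrays did not overlap. Of 11 genes of the pistil and ovule 4 were measured, none was called by limma and 2 were higher at an unadjusted p under 0.05, beside the same 17.9%. Their average was 5.21 to 5.39 in *tink/ibr5-6* and 4.79 to 5.001 in L*er*, with the carpel gene *SPT* at a log2 fold change of 0.47 (limma adjusted p = 0.128) and the style gene *NGA1* at 0.92 (limma adjusted p = 0.017), under the limit.

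To find the genes most like each of the 2 genes over the arrays, each gene was centred on its own mean and the root mean square difference over the 6 arrays was taken, for 13355 other genes. Likeness to *AGL66* includes its difference between genotypes, so that the log2 fold changes of these genes follow from the choice and carry no test. The closest were AT1G73630, annotated as a calcium-binding protein, at a difference of 0.155 log2 units and AT1G30820, a CTP synthase, at 0.162. AT5G54780, a RAB GTPase activator, followed at 0.167, the dynamin-like gene *DL1B* at 0.186 and the subtilase AT4G21630 at 0.190. Their log2 fold changes were -1.71, -1.74, -1.59, -1.53 and -1.42 in that order. AT4G21630 was at low signal on all *tink/ibr5-6* arrays, where it was at least 2.27-fold lower. *AGL104*, with its fitted log2 fold change of -2.53, ranked 196 at 0.443, *AGL30* ranked 808 and *AGL18* ranked 8164.

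For *AGL18* the measure finds genes that vary as little as it does. AT5G01970 was closest at 0.0155 log2 units, followed by *IAA30*, AT2G15695, AT1G49245 and AT1G77090 at 0.0248 to 0.0275. None was called and their absolute log2 fold changes were at most 0.04. *IAA30*, an *Aux/IAA* gene of the auxin response, was at low signal on all 6 arrays, where a narrow spread is common to many probe sets.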

How the data were processed

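The authors normalized 6 ATH1 arrays, 1 per plant, with gcrma (version not given in the sources used here) and deposited log2 values, which were not scaled again. The 64 control probe sets of 22810 were dropped. By the platform annotation, with locus names updated through the RefSeq gene table, 13513 probe sets stand for 1 gene and 503 for several, from which no gene was named, and 8730 are not in it. For the 146 genes with several probe sets the one with the highest mean was taken.

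The 2 genotypes were compared by lmFit and eBayes of limma 3.58.1 (R 4.3.3), which was first tested on simulated data. The prior for the spread had 0.401 degrees of freedom, so that each spread rests mostly on the probe set's own 6 values, and the number of arrays limits the precision. Where all arrays of the dimmer genotype were under 3, the fold is given from the mean of the brighter genotype against a log2 value of 3. Exact permutation tests and counts used Python 3.11.15, numpy 2.4.6, pandas 2.3.3 and scipy 1.17.1, and figures matplotlib 3.10.9. No 2 arrays held identical values.

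*AGL66*, *AGL18* and the gene lists were chosen with earlier results of these arrays known. Named are both genes, every MADS box gene that was called or is in the MIKC* class, the 4 other MADS box genes with the highest mean, for each of the 2 genes the 5 most like it and the 2 measured neighbours on either side, and from each list up to 4 called genes with the largest change and up to 2 not called with the highest mean. The alternatives were the replicate number as a block, weights for the arrays, a prior with a trend fitted robustly, a further quantile normalization or median centring, omission of probe sets that can match several genes or with a mean under 4 or 6, other thresholds, the probe set with the lowest mean, and leaving out each array.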

Additional observations from a re-analysis of the deposited data

How the results depend on the processing

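The log2 fold change of *AGL66* kept its direction under all 13 alternatives that hold it, from -1.85 to -1.52 with adjusted p of 0.00164 to 0.0932 from limma, and was called in 8. Leaving out each array gave -1.85 to -1.52, and probe sets with a mean of at least 6 leave *AGL66* out. The log2 fold change of *AGL18* was called in none of 14 and ranged from -0.029 to 0.071 without 1 array. Its sign turned only without *tink/ibr5-6* replicate 2 (-0.029), with *AGL18* at its highest on that array.

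The count of 966 called probe sets became 632 with a mean of at least 6, 366 at an adjusted p under 0.01, 3697 with no limit on the fold change, and 518 to 746 without 1 array. The 2 MADS box genes called became 1, *AGL66*, with a mean of at least 4, and none with a mean of at least 6 or at an adjusted p under 0.01, by limma in each case. Without 1 array they were 0 to 2, with *AGL104* alone called without L*er* replicate 1, L*er* replicate 3 or *tink/ibr5-6* replicate 3, and neither called without *tink/ibr5-6* replicate 2. The 8 pollen genes called became 2 of 5 tested with a mean of at least 6, 5 at an adjusted p under 0.01, and 6 to 10 without 1 array. A higher minimum signal leaves fewer genes to test.

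With the replicate number as a block, *AGL66* was not called (-1.70, limma adjusted p = 0.0932), and the counts fell to 133 probe sets, 0 MADS box genes and 2 pollen genes. The deviations of same-numbered arrays from their group means correlated with r of -0.30, 0.02 and -0.05. Those of differently numbered arrays gave r of -0.22 to 0.25. Deviations from a mean of only 3 arrays are tied to each other, so that these values cannot decide whether the numbers pair the plants.

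The difference between *AGL66* and *AGL18*, whose alternatives were chosen after seeing the data, kept its direction in all 13. With 3 plants per genotype the precision is limited, and 32 of the 40 MADS box genes, *AGL66* and *AGL18* not among them, gave low signal on all arrays.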

Other observations

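The measured genes nearest to *AGL66* and *AGL18* on their chromosomes were read as a set of values, with genes that were not measured passed over. On the side of *AGL66* towards lower coordinates lay its close relative *AGL67* and AT1G77960, both at 2.10 on all 6 arrays. On the other side lay AT1G78010 and AT1G78020, 3 and 4 protein-coding genes away. AT1G78010 had a log2 fold change of 0.24 (limma adjusted p = 0.383). AT1G78020 had log2 values of 10.44, 10.62 and 10.37 on *tink/ibr5-6* replicates 1, 2 and 3, and 11.12, 11.11 and 11.22 on L*er* replicates 1, 2 and 3. Its arrays did not overlap, with lower values in *tink/ibr5-6*, but its log2 fold change of -0.67 (SE 0.079, limma adjusted p = 0.0127) was under the limit for a call. The neighbours of *AGL18* on one side were AT3G57370 with 0.73 (limma adjusted p = 0.265) and AT3G57380 with -0.21 (limma adjusted p = 0.313). AT3G57370 was at low signal on 4 of the 6 arrays, all L*er* arrays among them, and AT3G57380 on all arrays. On the other side were AT3G57420 and *OTP84*, an organelle RNA editing gene, 3 and 4 protein-coding genes away. Their log2 fold changes were 0.12 (limma adjusted p = 0.28) and 0.23 (limma adjusted p = 0.36). None of the 8 neighbours was called.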
